A study of Homo sapiens with 18 samples.

Results

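The response to 1 short hairpin RNA, shERK5-4, was compared between 2 human neuroblastoma cell lines, SK-N-BE(2) and CHLA-90. For every probe the log2 change in SK-N-BE(2), the mean of 3 shERK5-4 arrays minus the mean of 3 shNSC arrays, was subtracted from the same change in CHLA-90. The result is called the interaction. A value above 0 means that the signal rose more, or fell less, in CHLA-90 than in SK-N-BE(2), and a value of 1 is a 2-fold gap between the responses. The comparison used 12 of the 18 arrays of the series and all 21448 probes, and every probe was a member. The groups were SK-N-BE(2) cells with shNSC, SK-N-BE(2) cells with shERK5-4, CHLA-90 cells with shNSC and CHLA-90 cells with shERK5-4, with 3 biological replicates each. The remaining 6 arrays carried shERK5-5, another hairpin against ERK5, in the same lines. Cells were exposed to lentivirus made in HEK-293T cells, a human embryonic kidney line, that delivered pLKO plasmids with the hairpins, and total RNA was taken 72 hours later. Every group, the controls included, carried a hairpin, since shNSC is the control hairpin, and no drug selection is named in the sources used here. SK-N-BE(2) carries an amplified MYCN gene and CHLA-90 does not. With 1 hairpin in each cell line, effects through ERK5 and effects of shERK5-4 on other transcripts cannot be told apart. In bulk RNA, fewer cells of a kind and less RNA per cell cannot be told apart either.

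ERK5, encoded by MAPK7, is a mitogen-activated protein kinase that is switched on by its upstream kinase MEK5 (MAP2K5). It phosphorylates transcription factors of the MEF2 family and is known for roles in cell cycle entry and growth factor signalling, and in neuroblastoma it has been placed between the receptor ALK and MYCN. Neuroblastoma arises from the sympathetic lineage. Its adrenergic cells carry transcription factors of that lineage, such as PHOX2A, HAND1 and GATA3, and the enzymes and transporters of catecholamine synthesis, whereas mesenchymal cells express matrix and motility genes.

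Signals were log2 values with array medians from 5.65 to 5.69 on the 6 SK-N-BE(2) arrays and from 6.35 to 6.43 on the 6 CHLA-90 arrays. The within-line changes that enter the interaction do not use that offset. Where levels of a gene are set side by side between the lines, they are the deposited signals, with that offset left in. Within groups, pairs of the 18 arrays had a correlation r across probes of 0.988 to 0.997, and the SK-N-BE(2) shERK5-4 arrays were the least alike of the 4 groups used here (mean r 0.989 to 0.991). The median standard error of an interaction was 0.28. P-values rest on the spread between replicates within groups. For each probe limma pools it over the 6 groups of the fit and draws it towards a value common to all probes. Under shNSC both lines carried sympathetic transcripts, with PHOX2A at a mean log2 signal of 12.35 in SK-N-BE(2) and 11.69 in CHLA-90, ISL1 at 13.84 and 10.59, and GATA3 at 11.86 and 14.08. DBH, which converts dopamine to noradrenaline, was high in CHLA-90 (13.67) and low in SK-N-BE(2) (4.87).

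The target transcript was reduced in both lines, and the interaction left no difference between them past the threshold. MAPK7 read 6.99, 6.46 and 6.90 under shNSC and 5.97, 6.28 and 6.02 under shERK5-4 in SK-N-BE(2). In CHLA-90 it read 8.37, 8.24 and 8.64 under shNSC and 7.15, 7.57 and 7.33 under shERK5-4. In each line all shERK5-4 arrays lay below all shNSC arrays. Its interaction was -0.37 ± 0.28 (SE), with a 95% interval of -0.94 to 0.20 and an adjusted p of 0.512 by limma, so the estimate was of a deeper fall in CHLA-90 but the interval covers equal silencing. MYCN fell from 17.22, 17.12 and 17.06 to 14.84, 15.25 and 15.24 in SK-N-BE(2) and from 8.78, 8.63 and 8.99 to 6.71, 6.93 and 7.10 in CHLA-90. The levels of this oncogene were far apart in the 2 lines while the log2 changes were -2.02 and -1.89, with an interaction of 0.14 ± 0.24 (interval -0.37 to 0.64, adjusted p = 0.832 by limma).

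Of the 21448 probes, 1550 (7.23%) had an interaction past an adjusted p of 0.05 by limma, and these are the called probes. The interaction lay above 0 for 835 (3.89% of all probes) and below 0 for 715 (3.33%). That balance turned with the scaling of the arrays, to 750 above and 757 below with arrays centred on their medians, 681 and 758 after quantile normalization over all arrays, 735 and 796 after quantile normalization within each line, and 736 and 910 with a common median and spread. Called interactions ran from 0.66 to 4.75 in size with a median of 1.21. The gap was at least 2-fold for 1194 probes, at least 4-fold for 143, at least 8-fold for 31 and at least 16-fold for 4. Over all probes the median interaction was 0.003. In the single lines, shERK5-4 changed 5133 probes (23.9%) in SK-N-BE(2) and 3918 (18.3%) in CHLA-90. Calls were rare among dim probes: 0.932% of the 25% of probes with the lowest mean signal, 5.84% of the next 25%, 11.3% of the third and 10.8% of the brightest.

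**Figure D1:**
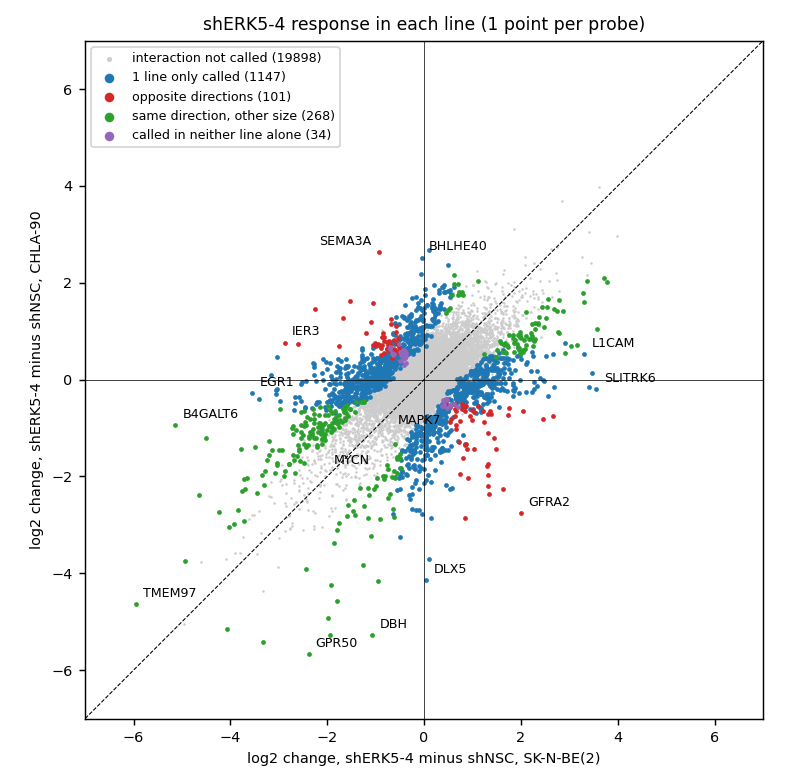
Log2 change with shERK5-4 against shNSC in SK-N-BE(2) (x axis) and CHLA-90 (y axis), 1 point per probe, where the dashed line marks equal changes. Grey points are the 19898 probes whose interaction was not called and coloured points the 1550 called ones, split into 1147 changed in 1 line, 101 changed in opposite directions, 268 changed in the same direction by unequal amounts and 34 called in neither line alone, so most coloured points lie along the axes.

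Crossing the interaction with the calls in each line sorted the 1550 probes by the shape of their response. A change in only 1 of the lines, with the other not past the threshold, was the most frequent shape, with 1147 probes (74%). Another 268 (17.3%) changed in the same direction by different amounts, 101 (6.52%) in opposite directions and 34 (2.19%) in neither line taken alone. The larger change was in SK-N-BE(2) for 1021 probes and in CHLA-90 for 529. Over all probes, called or not, it was in SK-N-BE(2) for 11638 and in CHLA-90 for 9784. Without replicate 2 of CHLA-90 shERK5-4 the opposite shape had 64 probes and the same-direction shape 169. Since the 3 contrasts share arrays, these shapes are a description of the calls. Where a pair of changes or folds is given for a gene, SK-N-BE(2) comes first.

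The largest shape held 433 probes (27.9% of the called ones) that fell in SK-N-BE(2) and were not called in CHLA-90. Its leading genes were CRABP2, which carries retinoic acid to its nuclear receptors, the immediate early transcription factor EGR1, the matrix proteoglycan LUM (lumican), the membrane-cytoskeleton linker MSN (moesin), the growth factor HGF and the membrane protein MALL. CRABP2 read 12.18, 12.12 and 12.17 under shNSC and 8.84, 9.20 and 9.32 under shERK5-4 in SK-N-BE(2), a fall of 8.21-fold, and 7.01, 6.75 and 6.63 under shNSC and 7.37, 7.46 and 6.95 under shERK5-4 in CHLA-90, where it was low and the change of 0.46 was not called. Its interaction of 3.50 ± 0.24 was the widest of this shape. EGR1 read 11.11, 11.52 and 11.66 under shNSC and 7.80, 7.81 and 8.03 under shERK5-4 in SK-N-BE(2), a fall of 11.7-fold. In CHLA-90 it read 8.91, 9.13 and 8.83 under shNSC and 8.52, 8.36 and 9.16 under shERK5-4. The SK-N-BE(2) groups were far apart and the CHLA-90 groups overlapped, and the interaction was 3.27 ± 0.29 (SE, adjusted p = 1.43e-07 by limma). The promoter of EGR1 is printed because EGR1 stood near the top of this shape and is a textbook target of serum response factor, which binds CArG boxes. It covers the 250 bases before the start site in RefSeq (GRCh38.p14, chr5:138465229-138465478, plus strand), with 2 CArG box matches in capitals that begin 105 and 83 bases before the start:
EGR1: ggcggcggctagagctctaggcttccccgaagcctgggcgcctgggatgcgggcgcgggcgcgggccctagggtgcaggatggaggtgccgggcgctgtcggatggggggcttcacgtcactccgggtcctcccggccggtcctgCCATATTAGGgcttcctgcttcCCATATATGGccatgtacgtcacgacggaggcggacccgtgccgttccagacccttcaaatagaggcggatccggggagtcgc
A CArG box was found in this window for 1.64% of all tested genes with a promoter sequence and for 2.31% of those in this shape, against 2.35% of those that rose in SK-N-BE(2) alone, 2.55% of those that fell in CHLA-90 alone, 2.17% of those that rose there alone and 2.78% of those that fell in both. The share was 1.72% in genes that rose in both (1 of 58), with no match in the other shapes. EGR1 itself is among the matches of its shape, and the box was added after seeing the data.

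LUM read 14.66, 14.53 and 14.27 under shNSC and 11.55, 11.39 and 11.02 under shERK5-4 in SK-N-BE(2), and 9.13, 9.48 and 9.05 under shNSC and 9.20, 9.39 and 9.35 under shERK5-4 in CHLA-90. Its interaction was 3.26 ± 0.27. HGF, the ligand of the receptor MET, went from 9.12, 8.95 and 8.73 to 5.63, 6.0 and 6.02 in SK-N-BE(2). In CHLA-90 HGF was dim under both hairpins (4.67, 4.72 and 4.39 under shNSC, 4.42, 4.0 and 4.49 under shERK5-4), so the SK-N-BE(2) arrays carry its interaction of 2.76 ± 0.28. The changes in SK-N-BE(2) and CHLA-90 were -3.03 and -0.20 for MSN and -2.29 and 0.35 for MALL. Adjusted p for the 6 interactions was at most 2.77e-05 by limma, and in SK-N-BE(2) no shERK5-4 array of any of these genes reached a shNSC array.

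A further 314 probes (20.3%) rose in SK-N-BE(2) and were not called in CHLA-90. The leading genes were SLITRK6, a neuronal transmembrane protein of the Slitrk family, PREX1, a guanine nucleotide exchange factor for Rac, the lipid transporter ABCA12, the melanosome protein TYRP1, the matrix protein MATN2 and the neural adhesion molecule L1CAM. SLITRK6 read 10.07, 9.59 and 9.89 under shNSC and 13.38, 13.66 and 13.19 under shERK5-4 in SK-N-BE(2), and 10.67, 10.77 and 10.47 under shNSC and 10.63, 10.41 and 10.27 under shERK5-4 in CHLA-90. Starting levels were close in the lines and the SK-N-BE(2) groups separated while the CHLA-90 groups overlapped, with an interaction of -3.76 ± 0.31. L1CAM went from 8.03, 7.84 and 8.06 to 11.58, 10.70 and 11.58 in SK-N-BE(2), a rise of 9.92-fold. In CHLA-90 it began high, at 13.47, 13.47 and 13.92, and read 14.04, 14.24 and 14.18 under shERK5-4, a change of 0.53 that was not called (adjusted p = 0.0808 by limma). L1CAM therefore moved towards the CHLA-90 level in SK-N-BE(2) without reaching it. PREX1, ABCA12, TYRP1 and MATN2 rose by 3.40, 3.46, 2.56 and 2.69 in SK-N-BE(2), against changes of -0.15, 0.14, -0.33 and -0.15 in CHLA-90 that were not called.

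In CHLA-90 alone, that is with no call in SK-N-BE(2), 220 probes (14.2%) fell. The homeobox gene DLX5 had the widest gap of this shape. It read 11.17, 11.30 and 11.51 under shNSC and 6.89, 7.06 and 7.59 under shERK5-4 in CHLA-90, a fall of 17.7-fold. In SK-N-BE(2) it was low throughout (6.09, 5.42 and 5.67 under shNSC, 5.27, 5.47 and 6.59 under shERK5-4). The interaction of DLX5 was -4.20 ± 0.52, with the largest standard error among the genes named here. CADPS, which primes dense-core vesicles for release, fell by 7.24-fold in CHLA-90, the metallothionein MT1F by 9.49-fold, the integrin chains ITGA8 and ITGA11 by 6.84-fold and 4.69-fold, and DCX (doublecortin), a microtubule protein of migrating neurons, by 4.54-fold. ITGA8 read 11.34, 11.39 and 11.47 under shNSC and 8.79, 8.50 and 8.59 under shERK5-4 in CHLA-90, and between 3.56 and 4.37 on all 6 SK-N-BE(2) arrays. DCX was present in both lines. It fell from 13.11, 13.18 and 13.18 to 11.03, 10.98 and 10.91 in CHLA-90 and read 9.78, 9.51 and 9.30 under shNSC and 10.11, 9.73 and 10.10 under shERK5-4 in SK-N-BE(2), where the groups overlapped. MT1F has close metallothionein copies, and signal shared with them cannot be separated.

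Another 180 probes (11.6%) rose in CHLA-90 alone. EPB41L4A, a FERM domain protein, read 5.84, 5.43 and 5.66 under shNSC and 8.36, 8.38 and 8.23 under shERK5-4 in CHLA-90, and stayed between 2.98 and 3.36 in SK-N-BE(2). The basic helix-loop-helix repressor BHLHE40 rose from 5.36, 5.83 and 5.56 to 7.79, 7.97 and 8.55 in CHLA-90. In SK-N-BE(2) it read 7.58, 7.42 and 7.80 under shNSC and 7.34, 7.54 and 7.78 under shERK5-4, so CHLA-90 was below SK-N-BE(2) under shNSC and no lower under shERK5-4. The aryl hydrocarbon receptor AHR rose by 3.24-fold in CHLA-90, the RNA-binding splicing factor CELF2 by 4.56-fold, MATCAP2 by 2.9-fold and the calcium-binding protein GCA by 3.67-fold. Interactions ran from 1.86 (GCA) to 2.58, with an adjusted p of at most 7.57e-05 by limma.

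**Figure D2:**
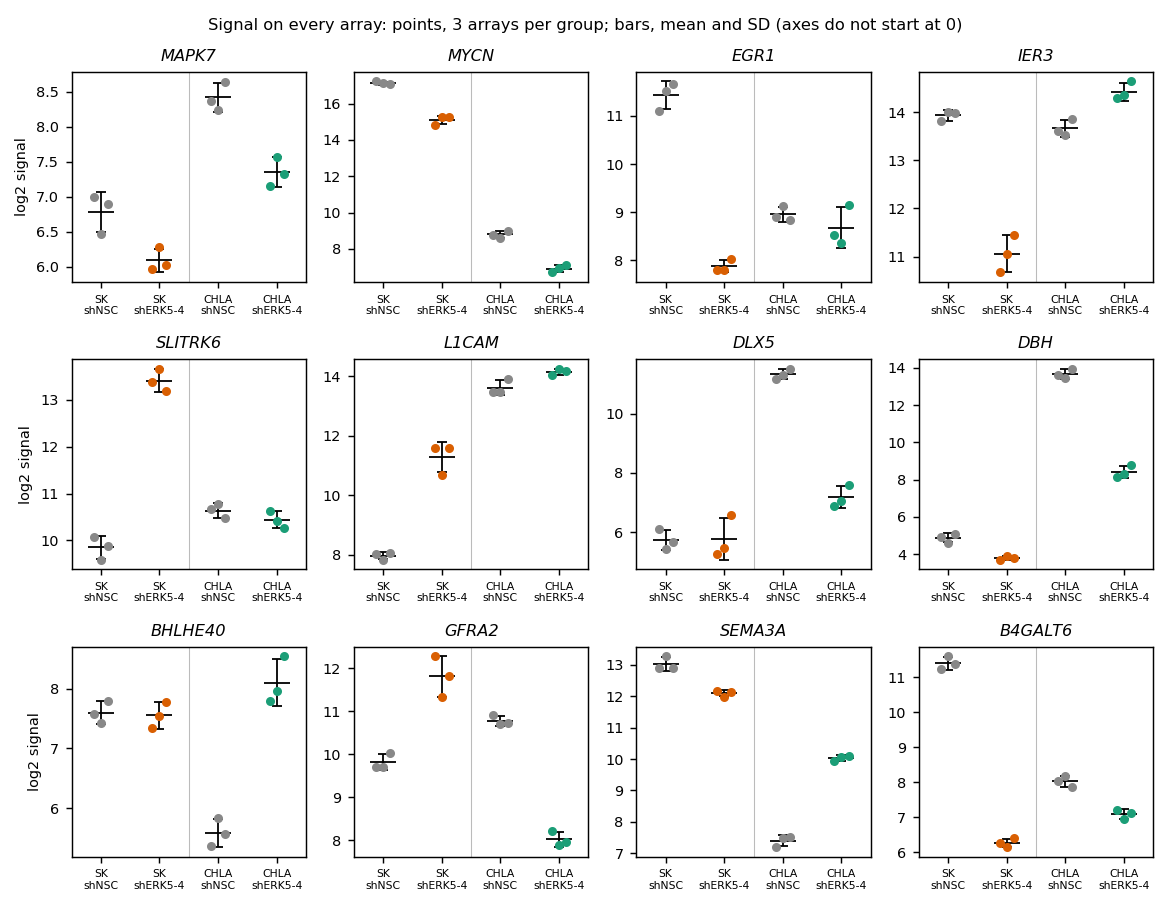
Log2 signal of 12 genes on each of the 12 arrays (points) with the mean and SD of the 3 arrays of a group (bars), for SK-N-BE(2) and CHLA-90 under shNSC (grey) and shERK5-4 (orange in SK-N-BE(2), green in CHLA-90); the axes do not start at 0. MAPK7 and MYCN fell in both lines, the EGR1 groups stood apart in SK-N-BE(2) and the DLX5 groups in CHLA-90, and GFRA2 and SEMA3A moved in opposite directions.

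Opposite movement was seen for 53 probes (3.42%) that rose in SK-N-BE(2) and fell in CHLA-90. GFRA2, the neurturin co-receptor that signals with RET, had the largest interaction of the named genes, -4.75 ± 0.33 (adjusted p = 5.29e-09 by limma). It went from 9.70, 9.71 and 10.03 to 12.28, 11.34 and 11.81 in SK-N-BE(2) and from 10.90, 10.69 and 10.72 to 8.22, 7.88 and 7.96 in CHLA-90. In the deposited signals the order of the lines was turned on every array, with CHLA-90 higher under shNSC and SK-N-BE(2) higher under shERK5-4. The offset between the array medians of the lines was not removed for this reading. ADCYAP1R1, the receptor for the neuropeptide PACAP, read 6.95, 7.28 and 7.06 under shNSC and 9.11, 8.60 and 8.49 under shERK5-4 in SK-N-BE(2), and 10.95, 10.76 and 10.94 under shNSC and 8.57, 8.58 and 8.70 under shERK5-4 in CHLA-90, so the shERK5-4 signals of the lines overlapped. SNAI1, a repressor of epithelial adhesion genes, went from 6.58, 6.51 and 6.84 to 7.88, 7.95 and 8.14 in SK-N-BE(2) and from 8.58, 8.34 and 8.87 to 6.07, 6.22 and 6.41 in CHLA-90. IGFBP5, a secreted binding protein of insulin-like growth factors, read 6.32, 5.91 and 7.22 under shNSC and 7.72, 6.74 and 7.50 under shERK5-4 in SK-N-BE(2), and 9.79, 9.39 and 9.77 under shNSC and 6.42, 6.81 and 7.12 under shERK5-4 in CHLA-90. Its SK-N-BE(2) groups overlapped, although its rise there passed the test (adjusted p = 0.0315 by limma). The changes in SK-N-BE(2) and CHLA-90 were 1.32 and -2.21 for FNDC5, the precursor of irisin, and 2.66 and -0.75 for YPEL3. Apart from IGFBP5 in SK-N-BE(2), no group of these 6 genes overlapped its control in either line.

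The reverse pattern, a fall in SK-N-BE(2) and a rise in CHLA-90, held 48 probes (3.1%). SYT9, a synaptotagmin that acts in vesicle release, had an interaction of 3.71 ± 0.26. IER3, an immediate early gene that protects from apoptosis, read 13.81, 14.01 and 13.99 under shNSC and 10.67, 11.06 and 11.45 under shERK5-4 in SK-N-BE(2), and 13.61, 13.52 and 13.86 under shNSC and 14.29, 14.35 and 14.64 under shERK5-4 in CHLA-90. In the deposited signals the lines overlapped under shNSC and stood apart under shERK5-4. SEMA3A, a secreted axon guidance cue, fell from 12.91, 13.28 and 12.90 to 12.17, 11.99 and 12.14 in SK-N-BE(2) and rose from 7.20, 7.48 and 7.53 to 9.93, 10.08 and 10.10 in CHLA-90, where it rose by 6.2-fold. In this gene the larger movement was the rise. The changes were -2.60 and 0.73 for LONRF2, -1.53 and 1.63 for the CRE-binding factor CREB5, and -1.05 and 1.59 for the decoy receptor IL13RA2. Adjusted p for the 12 named interactions with opposite movement was at most 2.96e-06 by limma.

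Where both lines moved the same way, the amounts differed. Of 82 called probes that rose in both, 68 rose more in SK-N-BE(2), and of 186 that fell in both, 138 fell more there. DYRK1B, a kinase of quiescent cells, read 5.02, 5.07 and 5.10 under shNSC and 8.09, 8.33 and 8.25 under shERK5-4 in SK-N-BE(2), and 6.99, 7.18 and 7.19 under shNSC and 7.91, 7.68 and 7.90 under shERK5-4 in CHLA-90, which are rises of 8.94-fold and 1.64-fold. The neuronal splicing regulator PTBP2 read 10.44, 10.61 and 10.42 under shNSC and 14.47, 14.23 and 14.11 under shERK5-4 in SK-N-BE(2), and 10.78, 10.69 and 10.61 under shNSC and 12.66, 12.69 and 12.77 under shERK5-4 in CHLA-90. It rose from a like level in both lines, by 13.7-fold and 4.04-fold. The microtubule protein MAP1A rose by 9.92-fold and 3.04-fold. Changes in SK-N-BE(2) and CHLA-90 were 2.91 and 0.54 for the zinc finger gene ZNF467, 2.79 and 0.97 for the Wnt inhibitor CXXC4, and 2.77 and 0.99 for the nuclear corepressor HR. The MAP1A call was lost (adjusted p = 0.0662 by limma) when the array of each line least like its own group, replicate 2 of SK-N-BE(2) shERK5-4 and replicate 3 of CHLA-90 shNSC, was left out, both together.

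Among genes that fell in both lines, some fell far more in SK-N-BE(2) and others in CHLA-90. B4GALT6, a lactosylceramide synthase, went from 11.24, 11.61 and 11.37 to 6.25, 6.16 and 6.40 in SK-N-BE(2), a fall of 35.2-fold. In CHLA-90 it went from 8.04, 8.18 and 7.87 to 7.22, 6.95 and 7.12, a fall of 1.91-fold, and its interaction was 4.20 ± 0.28 (adjusted p = 5.13e-09 by limma). GREM1, a secreted BMP antagonist, fell 22.7-fold in SK-N-BE(2), against 2.32-fold in CHLA-90. DBH ran the other way: 13.62, 13.45 and 13.95 against 8.13, 8.30 and 8.78 in CHLA-90, a fall of 38.6-fold, and 4.95, 4.60 and 5.07 against 3.71, 3.91 and 3.80 in SK-N-BE(2), where it was already dim. GPR50, a melatonin-receptor-related orphan receptor, fell from 13.11, 13.11 and 13.43 to 7.69, 7.30 and 7.64 in CHLA-90 and from 16.22, 16.26 and 16.66 to 14.31, 13.33 and 14.34 in SK-N-BE(2). It was bright in both lines to begin with, and its interaction was -3.29 ± 0.32. TMT1A, a thiol methyltransferase, fell 3.82-fold in SK-N-BE(2), against 38.6-fold in CHLA-90, and PRR16 by 3.97-fold and 30.1-fold.

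The levels under shNSC differed in size between the shapes. Probes that fell in SK-N-BE(2) alone had a median shNSC signal of 9.27 in SK-N-BE(2) and 8.20 in CHLA-90, against 5.67 and 6.39 over all probes. Those that fell in CHLA-90 alone had medians of 6.0 in SK-N-BE(2) and 8.96 in CHLA-90, and 41 of the 220 (18.6%) lay among the dimmest 25% of SK-N-BE(2) probes, against 4 (1.82%) in CHLA-90. Of the 433 that fell in SK-N-BE(2) alone, 40 (9.24%) lay among the dimmest 25% in CHLA-90 and 5 (1.15%) in SK-N-BE(2). The medians were 7.29 in SK-N-BE(2) and 8.34 in CHLA-90 for probes that rose in SK-N-BE(2) alone, and 5.98 and 6.97 for those that rose in CHLA-90 alone. A called fall needs signal under shNSC to fall from. The bright medians and low dim shares in the line that fell thus follow in part from the selection. A share of these transcripts was dim in the line where no change was called. That share lay under the 25% of all probes, but calls were rare among dim probes, so the selection favoured this too. The part of the starting level in the interaction was not tested.

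Several adrenergic identity genes, which mark the sympathetic state of neuroblastoma, fell more in CHLA-90. Of 21 measured members 10 had a called interaction, all below 0 (3.33% of all probes were; 1 member lay above 0 at an unadjusted p under 0.05, by limma), and the median interaction was -0.94 against 0.003 over all probes. That median was -0.76 without SK-N-BE(2) shERK5-4 replicate 2 and -1.07 without CHLA-90 shNSC replicate 2. It was -0.65 when SK-N-BE(2) shERK5-4 replicate 2 and CHLA-90 shNSC replicate 3 were left out together. The median change was -0.42 in SK-N-BE(2), where 9 members fell, and -1.77 in CHLA-90, where 15 fell. No member was called higher in either line. Among transcription factors, HAND1 changed by -1.09 in SK-N-BE(2) and -3.24 in CHLA-90, PHOX2A by -0.55 and -2.27, TFAP2B by -0.38 and -1.94 and GATA3 by 0.41 and -0.54. The sympathetic factors HAND2 (-0.42 and -0.54) and ISL1 (-3.00 and -3.28) changed by like amounts in the lines. Their interactions of -0.12 and -0.28 were not called. TFAP2B read 11.25, 11.06 and 11.63 under shNSC and 9.43, 9.18 and 9.51 under shERK5-4 in CHLA-90, and 10.55, 10.25 and 10.42 under shNSC and 10.09, 9.62 and 10.37 under shERK5-4 in SK-N-BE(2), where the groups overlapped. Among enzymes and transporters of catecholamines, the noradrenaline transporter SLC6A2 fell from 15.37, 15.36 and 15.59 to 13.73, 13.40 and 13.28 in CHLA-90 and read 14.06, 14.44 and 14.08 under shNSC and 14.41, 14.13 and 14.31 under shERK5-4 in SK-N-BE(2). DDC, which makes dopamine, went from 12.12, 12.29 and 12.27 to 10.37, 10.51 and 10.45 in CHLA-90 and read 9.02, 9.39 and 9.08 under shNSC and 9.56, 8.71 and 8.89 under shERK5-4 in SK-N-BE(2). Both lay above the all-probe median of SK-N-BE(2), where their groups overlapped. The vesicular transporters SLC18A1 and SLC18A2 changed by -0.20 and 0.32 in SK-N-BE(2), where neither was called, and by -1.77 and -0.85 in CHLA-90. TH, the first enzyme of the pathway, had an interaction of 0.89 that was not called (adjusted p = 0.155 by limma). The GATA3 call was lost without SK-N-BE(2) shNSC replicate 2, SK-N-BE(2) shERK5-4 replicates 2 or 3, CHLA-90 shNSC replicates 1 or 3 or CHLA-90 shERK5-4 replicates 1 or 2 (adjusted p up to 0.0794 by limma). That of SLC18A2 was lost without SK-N-BE(2) shNSC replicate 1, SK-N-BE(2) shERK5-4 replicate 1, CHLA-90 shNSC replicates 1 or 2 or CHLA-90 shERK5-4 replicates 1, 2 or 3 (up to 0.0792). HAND1, PHOX2A, GATA3, SLC18A1, SLC18A2 and CHGA were named after their values were seen.

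CHGA (chromogranin A), a dense-core vesicle protein, fell in both lines and more in CHLA-90. It read 11.03, 10.94 and 11.17 under shNSC and 8.38, 8.35 and 9.07 under shERK5-4 in SK-N-BE(2), and 14.04, 14.22 and 14.59 under shNSC and 10.28, 10.31 and 10.51 under shERK5-4 in CHLA-90, with an interaction of -1.47 ± 0.28 (adjusted p = 0.00208 by limma). Its promoter is shown because CHGA is a textbook target of CREB-family factors, which bind the CRE, and is a member of the list with the most calls. The 250 bases before the start in RefSeq (GRCh38.p14, chr14:92922900-92923149, plus strand) hold 1 CRE match, in capitals, that begins 54 bases before the start:
CHGA: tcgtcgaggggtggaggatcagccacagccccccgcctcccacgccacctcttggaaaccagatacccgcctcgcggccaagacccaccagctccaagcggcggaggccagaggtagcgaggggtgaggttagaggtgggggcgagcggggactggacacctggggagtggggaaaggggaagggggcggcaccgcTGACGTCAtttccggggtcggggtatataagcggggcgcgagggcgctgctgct
The CRE (TGACGTCA, which reads the same on both strands) was found in 2.76% of the 14250 tested genes with a promoter sequence, in 6.37% of those that fell in CHLA-90 alone (10 of 157) and in 3.96% of those that fell in SK-N-BE(2) alone (12 of 303). The share was 4.86% in genes that fell in both lines, as CHGA did (7 of 144), 5.07% in those that rose in CHLA-90 alone (7 of 138) and 1.41% in those that rose in SK-N-BE(2) alone (3 of 213). It was 8.57% in genes that fell in SK-N-BE(2) and rose in CHLA-90 (3 of 35), 2.5% in the reverse (1 of 40) and 3.45% in genes that rose in both (2 of 58). CHGA itself is among the 7 matches of its shape. Such a match is a run of letters, and binding was not measured.

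Several MAPK output and feedback genes, the targets and brakes of the ERK pathway, fell more in SK-N-BE(2). Of 27 measured members, 8 were called above 0 and 1 below (3.89% and 3.33% of all probes were), with a median interaction of 0.31. Without SK-N-BE(2) shNSC replicate 3 that median was 0.12, and without CHLA-90 shERK5-4 replicate 3 it was 0.20. The median change was -0.59 in SK-N-BE(2), with 13 members lower and 1 higher, and -0.22 in CHLA-90, with 10 lower and 3 higher. Beside EGR1 and IER3, the called members above 0 were the immediate early genes JUN and IER2, the phosphatase DUSP6, the feedback inhibitors SPRY4 and SPRED2 and the ETS factor ETV1. DUSP6, which removes the activating phosphates of ERK1 and ERK2, read 11.61, 11.70 and 11.72 under shNSC and 9.28, 8.96 and 9.17 under shERK5-4 in SK-N-BE(2), and 7.62, 7.25 and 7.25 under shNSC and 6.92, 6.32 and 6.88 under shERK5-4 in CHLA-90. It fell in both lines, with an interaction of 1.87 ± 0.26 (adjusted p = 5.03e-05 by limma). JUN read 6.69, 6.34 and 6.73 under shNSC and 5.11, 5.42 and 5.40 under shERK5-4 in SK-N-BE(2), and 7.12, 7.16 and 7.39 under shNSC and 7.48, 8.02 and 8.13 under shERK5-4 in CHLA-90, where the higher values were not called (adjusted p = 0.137 by limma). SPRED2 fell by 1.62-fold in SK-N-BE(2) and rose by 1.51-fold in CHLA-90. The changes in SK-N-BE(2) and CHLA-90 were -1.64 and -0.22 for IER2, -1.75 and -0.72 for SPRY4 and -1.63 and -0.84 for ETV1. The exception was DUSP10, a phosphatase of JNK and p38, with -0.59 in SK-N-BE(2) (not called) and -2.0 in CHLA-90. FOS and FOSB, at 4.78 and 4.11 under shNSC in SK-N-BE(2), were dim and had interactions of -0.09 and -0.13. The ETV1 call was lost without SK-N-BE(2) shNSC replicate 2, SK-N-BE(2) shERK5-4 replicate 1, CHLA-90 shNSC replicate 2 or CHLA-90 shERK5-4 replicates 2 or 3 (adjusted p up to 0.0714 by limma). JUN, SPRY4, ETV1, IER2 and DUSP10 were named after their values were seen.

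The ERK5 list held the cascade and its reported targets. Of 14 measured members 2 were called, both above 0 (3.89% of all probes were), and the median interaction was 0.09. KLF6, a Krüppel-like factor, fell from 11.90, 11.98 and 12.36 to 9.32, 10.30 and 10.49 in SK-N-BE(2) and from 11.60, 11.61 and 11.77 to 10.81, 11.05 and 10.94 in CHLA-90. It fell in both lines and more in SK-N-BE(2), with an interaction of 1.32 ± 0.33 (adjusted p = 0.0145 by limma). MEF2A, a MEF2 factor that ERK5 phosphorylates, read 11.06, 11.32 and 11.03 under shNSC and 10.18, 9.53 and 9.83 under shERK5-4 in SK-N-BE(2), and 11.78, 11.97 and 11.46 under shNSC and 11.43, 11.62 and 11.24 under shERK5-4 in CHLA-90, where the groups overlapped. Its interaction of 0.98 ± 0.27 (adjusted p = 0.0295 by limma) was not called without SK-N-BE(2) shNSC replicate 2, SK-N-BE(2) shERK5-4 replicate 2, CHLA-90 shNSC replicates 1 or 3 or CHLA-90 shERK5-4 replicates 1 or 2 (up to 0.0915), nor under both quantile normalizations (up to 0.179 over all alternatives). The kinases MAP2K5, MAP3K2 and MAP3K3 had interactions of -0.89, 0.20 and 0.04, and KLF2 and KLF4 of 0.47 and -0.44, none called.

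Many genes that start S phase and copy DNA (the G1/S list) fell in each line, and their estimates leaned to a deeper fall in SK-N-BE(2). Of 36 measured members, 34 had an interaction above 0, 8 were called above 0 and none below (3.89% and 3.33% of all probes were; 15 and 0 members at an unadjusted p under 0.05, by limma), with a median of 0.49. Counts called above 0 dropped to 5 without SK-N-BE(2) shERK5-4 replicate 2, CHLA-90 shNSC replicate 2, CHLA-90 shNSC replicate 3 or CHLA-90 shERK5-4 replicate 2, and to 4 after quantile normalization over all arrays. The number that fell was 31 in SK-N-BE(2) (median change -0.94) and 16 in CHLA-90 (median -0.55). E2F8, an E2F repressor of S phase, read 8.57, 8.52 and 8.71 under shNSC and 6.17, 5.93 and 6.41 under shERK5-4 in SK-N-BE(2), and 10.44, 10.43 and 10.54 under shNSC and 8.97, 9.01 and 9.28 under shERK5-4 in CHLA-90. It fell in both lines, by 5.39-fold and 2.61-fold. CHAF1B, a chromatin assembly subunit, fell by 2.29-fold in SK-N-BE(2) with a change of -0.07 in CHLA-90 that was not called, and E2F7 by 2.32-fold with -0.22. The clamp loader subunit RFC3 fell by 3.76-fold and 1.85-fold. The other called members, named after their values were seen, were the licensing factor CDC6 (1.03), CDC45 (0.89) and MCM4 (0.94) of the replicative helicase, and CHAF1A (0.92), the partner of CHAF1B. Several of these calls were lost when 1 array was left out. MCM4 was not called without any 1 of the 12 arrays other than SK-N-BE(2) shERK5-4 replicates 1 or 3 (adjusted p up to 0.109 by limma). CDC45 was not called without SK-N-BE(2) shNSC replicate 2, SK-N-BE(2) shERK5-4 replicate 2, CHLA-90 shNSC replicates 1 or 2 or CHLA-90 shERK5-4 replicate 2 (up to 0.0551), and CDC6 without SK-N-BE(2) shNSC replicate 2, SK-N-BE(2) shERK5-4 replicate 2, CHLA-90 shNSC replicate 3 or CHLA-90 shERK5-4 replicate 3 (up to 0.065). CHAF1A was not called without CHLA-90 shNSC replicate 2 or CHLA-90 shERK5-4 replicate 2 (0.0665), and RFC3 without CHLA-90 shNSC replicate 3 (0.0536). PCNA, the replication clamp, had an interaction of -0.07 and RRM1, a ribonucleotide reductase subunit, of -0.14, neither called.

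Among 17 G1 cyclins, CDKs, inhibitors and RB family genes, 3 were called, all above 0 (3.89% of all probes were), with a list median of -0.10 (0.10 without SK-N-BE(2) shERK5-4 replicate 2), and all were named after their values were seen. CDK6, a kinase that drives G1 progression, read 12.26, 12.33 and 12.15 under shNSC and 8.97, 8.26 and 8.52 under shERK5-4 in SK-N-BE(2), and 11.58, 11.90 and 11.89 under shNSC and 9.64, 9.94 and 9.68 under shERK5-4 in CHLA-90. The falls were 12.7-fold and 4.1-fold. The cyclin CCNE2 fell by 5.84-fold and 1.91-fold, and its partner CDK2 by 2.1-fold in SK-N-BE(2) with -0.07 in CHLA-90, not called. The CDK2 interaction was not called without SK-N-BE(2) shNSC replicate 3, SK-N-BE(2) shERK5-4 replicate 2 or CHLA-90 shNSC replicates 1 or 2 (adjusted p up to 0.0608 by limma). CCND1 (cyclin D1) fell in both lines, with changes of -1.18 and -0.70, with an interaction of 0.48 that was not called. In the list of MYC targets and ribosome biogenesis 17 of 18 members had an interaction above 0 (median 0.54), and 2 were called (3.89% of all probes were above 0), the nucleolar proteins NOP16 (1.87) and RRP9 (0.86). RRP9 was not called without SK-N-BE(2) shNSC replicates 1 or 3, SK-N-BE(2) shERK5-4 replicate 1, CHLA-90 shNSC replicates 1 or 2 or CHLA-90 shERK5-4 replicates 1 or 2 (adjusted p up to 0.14 by limma). The list's median change was -0.56 in SK-N-BE(2), with 12 lower, and 0 in CHLA-90, with 1 lower. In the MYC and MAX network 1 of 12 was called, MGA, a MAX partner that represses, with 1.38; it fell by 1.77-fold in SK-N-BE(2) and rose by 1.47-fold in CHLA-90. These 3 genes were also named after their values were seen.

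**Figure D3:**
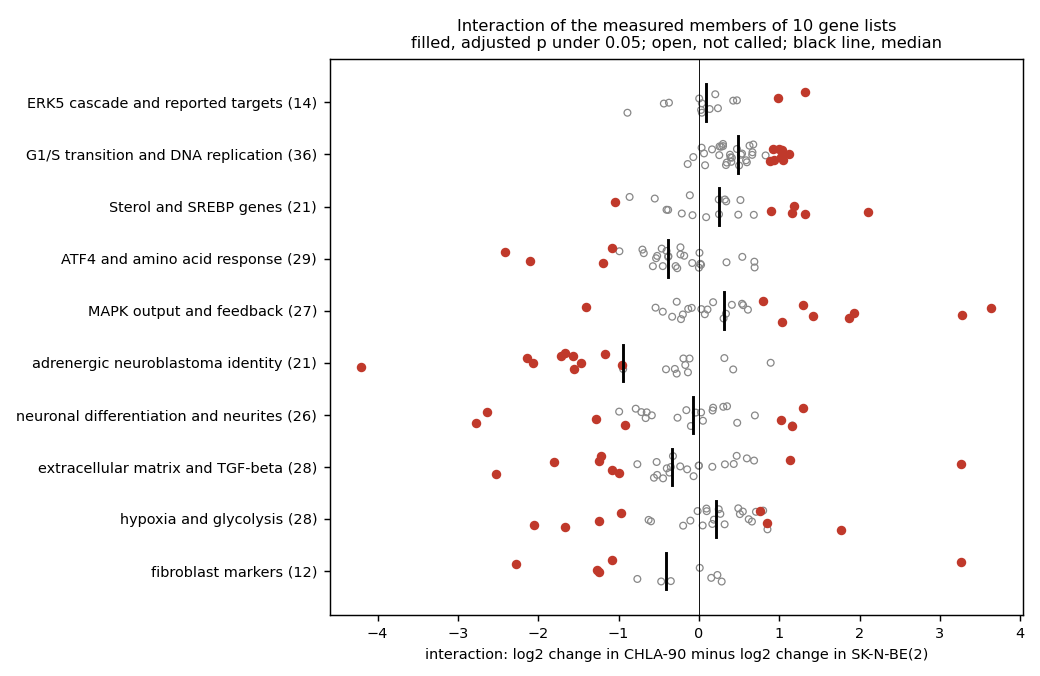
Interaction (log2 change in CHLA-90 minus log2 change in SK-N-BE(2), x axis) of every measured member of 10 gene lists, with the number measured in brackets; filled points passed an adjusted p of 0.05 by limma, open points did not, and black lines are list medians. Adrenergic genes lie mostly to the left (median -0.94, 10 called below 0), while G1/S genes cluster to the right of 0 (median 0.49).

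Genes of the ATF4 and amino acid response were called below 0 in 4 of 29 cases and above 0 in none (3.33% and 3.89% of all probes were; 7 and 3 members at an unadjusted p under 0.05, by limma), with a list median of -0.38, or -0.24 without SK-N-BE(2) shERK5-4 replicate 3. The median change was 0.25 in SK-N-BE(2), with 10 members higher and 3 lower, and -0.17 in CHLA-90, with 3 higher and 5 lower. CHAC1, a glutathione-degrading enzyme, read 5.34, 5.60 and 5.95 under shNSC and 6.41, 6.83 and 7.34 under shERK5-4 in SK-N-BE(2), and 7.63, 7.56 and 7.89 under shNSC and 6.84, 6.67 and 6.95 under shERK5-4 in CHLA-90. It rose by 2.35-fold in the former and fell by 1.83-fold in the latter, with an interaction of -2.10 ± 0.30 (adjusted p = 9.92e-05 by limma). VLDLR, a lipoprotein receptor, rose by 1.74-fold and fell by 3.07-fold. Asparagine synthetase ASNS read 11.81, 11.86 and 11.49 under shNSC and 11.90, 11.53 and 11.60 under shERK5-4 in SK-N-BE(2), with overlap, and fell by 2.18-fold in CHLA-90. PHGDH, which starts serine synthesis, rose by 1.81-fold in SK-N-BE(2) with -0.34 in CHLA-90, not called; its interaction was not called without CHLA-90 shNSC replicate 3 (adjusted p = 0.0513 by limma). ATF4 itself had an interaction of -0.53 and the induced factor DDIT3 of 0.54, neither called. The CHAC1 promoter is shown because CHAC1 is a textbook ATF4 target that moved in opposite directions. The 250 bases before the start in RefSeq (GRCh38.p14, chr15:40953221-40953470, plus strand) hold 1 match to the ATF4 element TGATGCAA on the opposite strand, in capitals, that begins 209 bases before the start:
CHAC1: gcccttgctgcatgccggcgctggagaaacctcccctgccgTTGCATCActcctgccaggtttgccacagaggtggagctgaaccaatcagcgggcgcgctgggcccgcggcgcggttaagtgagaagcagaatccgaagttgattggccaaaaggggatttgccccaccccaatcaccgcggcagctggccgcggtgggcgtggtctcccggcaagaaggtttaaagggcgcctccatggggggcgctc
This element was found for 0.814% of all tested genes with a promoter sequence, and for 5% of those that rose in SK-N-BE(2) and fell in CHLA-90 (2 of 40). The element was added after seeing the data, and CHAC1 is 1 of these 2. It was also found for 3.45% of those that rose in both lines (2 of 58), 2.86% of those that fell in SK-N-BE(2) and rose in CHLA-90 (1 of 35) and 2.31% of those that fell in SK-N-BE(2) alone (7 of 303). The share was 1.39% in genes that fell in both (2 of 144) and 0.939% in those that rose in SK-N-BE(2) alone (2 of 213). For those that rose in CHLA-90 alone it was 0.725% (1 of 138). No match was found in genes that fell in CHLA-90 alone (0 of 157) or were called in neither line alone (0 of 23).

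Most sterol synthesis genes fell in each line, with the deeper fall in SK-N-BE(2) for 5 of 6 called members of 21 measured (median interaction 0.25; 7.23% of all probes were called). After quantile normalization over all arrays 3 were called above 0 and the median was 0.025. The number that fell was 15 in SK-N-BE(2) (median change -1.51) and 16 in CHLA-90 (median -1.13), and none was called higher. TMEM97, a sterol-regulated membrane protein, read 13.84, 13.85 and 14.03 under shNSC and 8.16, 7.64 and 8.05 under shERK5-4 in SK-N-BE(2), and 14.13, 14.08 and 14.10 under shNSC and 9.50, 9.29 and 9.62 under shERK5-4 in CHLA-90. These were falls of 62.1-fold and 24.8-fold, with an interaction of 1.32 ± 0.23. HSD17B7, an enzyme of cholesterol synthesis, fell by 5.82-fold in SK-N-BE(2) with -0.44 in CHLA-90, not called, and the demethylase CYP51A1 fell by 5.22-fold and 2.3-fold. SQLE (1.15) and HMGCS1 (0.90), an epoxidase and a synthase of the pathway, were named after their values were seen. Mevalonate kinase MVK was the called member below 0, with -0.16 in SK-N-BE(2), not called, and -1.20 in CHLA-90. SQLE was not called without SK-N-BE(2) shERK5-4 replicate 3, CHLA-90 shNSC replicates 1 or 3 or CHLA-90 shERK5-4 replicate 2 (adjusted p up to 0.0561 by limma), HMGCS1 without SK-N-BE(2) shNSC replicate 2, SK-N-BE(2) shERK5-4 replicate 3, CHLA-90 shNSC replicate 2 or CHLA-90 shERK5-4 replicate 1 (up to 0.0748), and MVK without CHLA-90 shNSC replicate 3 (0.0535). SREBF2, the sterol regulator, fell in both lines, with changes of -3.90 and -3.58, with an interaction of 0.32 that was not called.

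Matrix and TGF-beta genes had 6 called members below 0 and 2 above among 28 (3.33% and 3.89% of all probes were), with a median interaction of -0.34. BGN (biglycan), a matrix proteoglycan, read 10.49, 10.40 and 11.01 under shNSC and 7.86, 7.91 and 8.04 under shERK5-4 in CHLA-90, and 15.20, 15.24 and 15.54 under shNSC and 14.96, 15.32 and 15.18 under shERK5-4 in SK-N-BE(2), where it was bright and the groups overlapped. Its interaction was -2.52 ± 0.32. The microfibril protein FBN1 fell by 2.79-fold in CHLA-90 and changed by 0.32 in SK-N-BE(2), not called, and the proteoglycan DCN (decorin) fell 1.47-fold in SK-N-BE(2), against 3.1-fold in CHLA-90. LUM stood on the other side of 0. Named after their values were seen, thrombospondin THBS1 had -1.24, fibronectin FN1 -1.21, SPARC -1.0 and the collagen chain COL6A3 1.14. COL6A3 was not called without CHLA-90 shNSC replicate 3 or CHLA-90 shERK5-4 replicate 1 (adjusted p up to 0.0523 by limma), and FN1 and THBS1 were not called when SK-N-BE(2) shERK5-4 replicate 2 and CHLA-90 shNSC replicate 3 were left out together (0.0545 and 0.0571). TGFBI, a TGF-beta-induced matrix protein, fell in both lines, with changes of -3.45 and -3.60 and an interaction of -0.15, not called.

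Of 12 fibroblast markers, some shared with the matrix list, 4 were called below 0 and 1 above (3.33% and 3.89% of all probes were). Their median was -0.41, or -0.27 without CHLA-90 shERK5-4 replicate 3. Smooth muscle actin ACTA2 read 12, 12.23 and 12.08 under shNSC and 9.90, 10.03 and 10.01 under shERK5-4 in CHLA-90, and 10.36, 9.83 and 10.40 under shNSC and 10.40, 10.27 and 10.38 under shERK5-4 in SK-N-BE(2), where the groups overlapped. The receptor PDGFRA fell by 2.98-fold in CHLA-90 with -0.31 in SK-N-BE(2), not called, and TAGLN, named after its value was seen, had -1.25 and was not called without any 1 of the 12 arrays other than SK-N-BE(2) shNSC replicate 3, SK-N-BE(2) shERK5-4 replicate 2, CHLA-90 shNSC replicate 1 or CHLA-90 shERK5-4 replicate 3 (adjusted p up to 0.0893 by limma). The log2 of the summed signal of the 12 markers lay between 15.14 and 15.32 under shNSC and between 14.21 and 14.27 under shERK5-4 in SK-N-BE(2). In CHLA-90 it lay between 13.40 and 13.49 under shNSC and between 12.17 and 12.26 under shERK5-4. Such a sum is weighted to the brightest markers. In SK-N-BE(2) LUM, the brightest there, went from 14.49 to 11.32. The median change of the 12 markers was 0.07 in SK-N-BE(2) and -0.06 in CHLA-90. Under shNSC 9 of the 12 fibroblast markers lay above the all-probe median of 5.67 in SK-N-BE(2) and 8 above that of 6.39 in CHLA-90. Bright ones were THY1 (12.99 and 9.03), PDGFRB (11.15 and 8.03), DCN (11.08 and 12.14), LUM (14.49 and 9.22) and COL1A2 (8.71 and 8.99), while FAP (2.58 and 3.21), PDPN (3.07 and 3.19) and S100A4 (4.71 and 5.73) lay below in both lines. Of 7 Schwann cell markers 1 was called, NGFR (-1.32), of 10 endothelial markers 1, ENG (-2.13), and of 11 blood and immune markers 1, PTPRC (1.51), all named after their values were seen. Summed Schwann marker signals were 6.96 to 7.10 under shNSC and 7.39 to 7.60 under shERK5-4 in SK-N-BE(2), against 6.73 to 6.88 and 6.70 to 6.74 in CHLA-90. For endothelial markers they were 9.35 to 10.17 and 8.96 to 9.67 in SK-N-BE(2), against 11.92 to 12.22 and 9.47 to 9.85 in CHLA-90. The brightest of these in CHLA-90, ENG, went from 11.97 to 9.20 there. Summed immune marker signals were 8.83 to 9.03 and 8.06 to 8.18 in SK-N-BE(2), against 8.25 to 8.49 and 8.17 to 8.45 in CHLA-90. None of the Schwann markers lay above the all-probe medians under shNSC, with SOX10 at 5.26 and 4.85. Of the endothelial markers ENG did so in both lines (9.24 and 11.97) and EMCN in SK-N-BE(2) (6.06), while CDH5 (4.08 and 4.18) and PECAM1 (3.85 and 4.06) lay below. Of the immune markers PTPRC did so in SK-N-BE(2) (7.90) and CD79A in CHLA-90 (6.57), while CD3E (4.28 and 4.88) lay below. The part of other cell types in the matrix and fibroblast genes was not tested.

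Neuronal differentiation genes split, with 4 called below 0 and 3 above among 26 (3.33% and 3.89% of all probes were; median -0.07, which was 0.01 without SK-N-BE(2) shERK5-4 replicate 2 or CHLA-90 shNSC replicate 3). None was called above 0 without SK-N-BE(2) shNSC replicate 3, and 1 without CHLA-90 shNSC replicate 2 or CHLA-90 shERK5-4 replicate 2. L1CAM and DCX gave the widest gaps. RBFOX1, a neuronal splicing factor, read 8.39, 8.38 and 8.55 under shNSC and 6.97, 6.83 and 6.99 under shERK5-4 in CHLA-90 and was dim in SK-N-BE(2) (4.55, 4.51 and 4.59 under shNSC, 4.22, 4.22 and 4.53 under shERK5-4). ELAVL3, a neuronal RNA-binding protein, rose in both lines, 1.5-fold in SK-N-BE(2), against 3.36-fold in CHLA-90. Named after their values were seen, the synaptotagmin SYT1 had -0.92, the stathmin STMN4 1.03 and the SNARE protein SNAP25 1.29. SNAP25 was not called without any 1 of the 12 arrays other than SK-N-BE(2) shERK5-4 replicate 2 (adjusted p up to 0.119 by limma), and STMN4 without SK-N-BE(2) shNSC replicate 3, SK-N-BE(2) shERK5-4 replicate 2, CHLA-90 shNSC replicate 2 or CHLA-90 shERK5-4 replicate 2 (up to 0.0742). SYT1 was not called without SK-N-BE(2) shNSC replicate 2 or CHLA-90 shERK5-4 replicate 3 (up to 0.0625), and ELAVL3 without SK-N-BE(2) shNSC replicate 3 (0.055).

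Hypoxia and glycolysis genes were split as well, with 3 called above 0 and 4 below among 28 (3.89% and 3.33% of all probes were). Their median was 0.22, or 0.098 without CHLA-90 shERK5-4 replicate 3, 0.36 without SK-N-BE(2) shERK5-4 replicate 3 and 0.07 with a common median and spread of all arrays. Without SK-N-BE(2) shNSC replicate 2 they were 1 and 2, and the count above 0 was 1 also without SK-N-BE(2) shNSC replicate 3, CHLA-90 shNSC replicate 1 or 2, or CHLA-90 shERK5-4 replicate 2 or 3. SLC2A3, a glucose transporter, read 8.80, 8.64 and 8.75 under shNSC and 11.14, 9.88 and 10.68 under shERK5-4 in SK-N-BE(2), and was dim in CHLA-90 (4.45, 3.99 and 4.49 under shNSC and 3.95, 4.16 and 4.16 under shERK5-4). It rose by 3.57-fold in SK-N-BE(2). VEGFA, the angiogenic growth factor, rose 2.16-fold in SK-N-BE(2) but fell by 1.46-fold in CHLA-90. PDK1, a kinase that inhibits pyruvate dehydrogenase, read 9.42, 9.37 and 9.38 under shNSC and 8.14, 8.12 and 8.09 under shERK5-4 in SK-N-BE(2), and 7.13, 7.49 and 7.22 under shNSC and 7.58, 7.70 and 8.06 under shERK5-4 in CHLA-90, where the change of 0.50 was not called. The mitophagy receptor BNIP3L rose by 2.27-fold in SK-N-BE(2) with 0.21 in CHLA-90, not called. EPAS1 (-1.24), ENO1 (0.76) and PFKFB3 (0.85), a hypoxia factor and enzymes of glycolysis, were named after their values were seen. BNIP3L was not called without SK-N-BE(2) shNSC replicate 2, CHLA-90 shNSC replicate 2 or CHLA-90 shERK5-4 replicate 1 (adjusted p up to 0.0568 by limma), and EPAS1 without SK-N-BE(2) shNSC replicate 2 or CHLA-90 shERK5-4 replicate 3 (up to 0.0671). ENO1 was not called without any 1 of the 12 arrays other than SK-N-BE(2) shNSC replicate 1 or SK-N-BE(2) shERK5-4 replicates 1 or 3 (up to 0.0941), and PFKFB3 without any 1 of the 12 arrays other than CHLA-90 shNSC replicate 3 or CHLA-90 shERK5-4 replicate 1 (up to 0.142).

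The same interaction was computed for shERK5-5. It uses the same shNSC arrays as that of shERK5-4, so the values stand side by side with no test of their likeness. List medians, shERK5-4 first, were -0.94 and -0.27 for adrenergic genes, 0.31 and 0.13 for MAPK output and 0.25 and 0.09 for sterol genes. They were -0.38 and -0.66 for the ATF4 list, -0.34 and -0.06 for matrix genes and -0.41 and -0.48 for fibroblast markers. Signs were opposite for G1/S genes (0.49 and -0.14), MYC targets (0.54 and -0.10) and hypoxia genes (0.22 and -0.345). Neuronal genes had -0.07 and -0.10, the ERK5 list 0.09 and 0.07, and all probes 0.003 and 0.04. EGR1 had 3.27 with shERK5-4 and 1.09 with shERK5-5, IER3 3.64 and 1.24, SEMA3A 3.56 and 2.04, and B4GALT6 4.20 and 2.71. GFRA2 had -4.75 and -1.41, CHAC1 -2.10 and -2.56, MEF2A 0.98 and 1.0, and CDK6 1.63 and 2.01. Values nearer 0 with shERK5-5 were seen elsewhere: MSN had 2.83 and 0.04, DBH -4.20 and -0.48, ADCYAP1R1 -3.90 and 0.12, CRABP2 3.50 and 0.02, and DYRK1B -2.45 and -0.09. TYRP1 had -2.89 and -3.53. The sign turned for HGF, with 2.76 and -2.23, for PTBP2, with -1.77 and 1.46, for IL13RA2, with 2.64 and -1.31, and for DLX5, with -4.20 and 1.49 (the latter not called, adjusted p = 0.0989 by limma). Under shERK5-5 HGF read 10.79, 10.97 and 11.21 in SK-N-BE(2), above its shNSC arrays, where shERK5-4 had lowered it. MYCN, with no called interaction for shERK5-4, had one of 1.77 for shERK5-5 (adjusted p = 0.000163 by limma), since it read 16.36, 16.29 and 16.34 in SK-N-BE(2), below shNSC, and 9.62, 9.63 and 10.06 in CHLA-90, above shNSC.

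**Figure D4:**
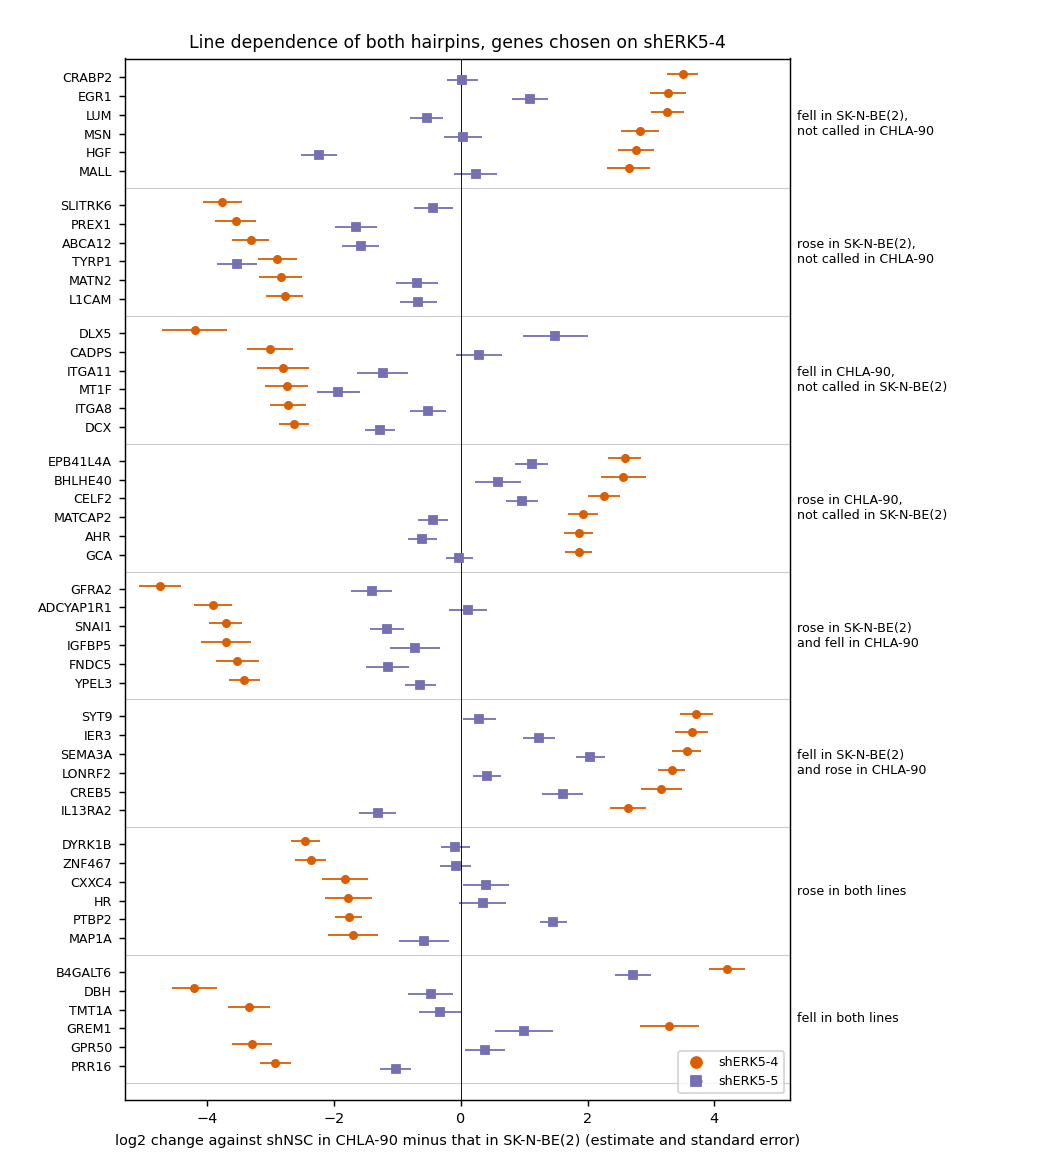
Interaction with its standard error (x axis, log2) for shERK5-4 (orange circles) and shERK5-5 (purple squares) in the 48 genes with the widest shERK5-4 gaps, 6 for each of 8 shapes. The genes were chosen on shERK5-4, so its points lie far from 0 by choice; those of shERK5-5 range from -3.53 (TYRP1) to 2.71 (B4GALT6).

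A contrast without the shNSC arrays asked whether the hairpins differed by different amounts in the 2 lines, as shERK5-4 minus shERK5-5 in CHLA-90 less the same in SK-N-BE(2). It called 2896 probes (13.5%) by limma. Among the named genes the difference was 4.99 for HGF, -5.69 for DLX5, -4.02 for ADCYAP1R1, -3.73 for DBH, -3.22 for PTBP2, 3.80 for LUM and -1.64 for MYCN, all called (adjusted p at most 9.31e-05). For EGR1 it was 2.19 and for SEMA3A 1.52, also called (adjusted p = 2.24e-05 and 0.000104 by limma). It was not called for MAPK7 (-0.02, interval -0.59 to 0.55), MEF2A (-0.02, -0.59 to 0.55), CHAC1 (0.46, -0.17 to 1.09) or PHGDH (-0.08, -0.69 to 0.54). This contrast shares the shERK5-4 arrays with the interaction, so genes chosen for a wide shERK5-4 gap were favoured to show a difference here.

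Promoter letters were counted in the RefSeq promoters (250 bases before the start, GRCh38.p14) of the genes of each shape that carry a symbol, where 1 match in any listed promoter of a gene counts and both strands were searched. The E-box CACGTG, the site of MYC-family and other basic helix-loop-helix factors, was found in 9.68% of the 14250 tested genes with a promoter. It was found in 15.2% of genes that fell in SK-N-BE(2) alone (46 of 303), 14.5% of those that rose in CHLA-90 alone (20 of 138), 13.2% of those that fell in both (19 of 144), 17.5% of those that rose in SK-N-BE(2) and fell in CHLA-90 (7 of 40), 11.4% of the reverse (4 of 35), 7.04% of those that rose in SK-N-BE(2) alone (15 of 213), 8.92% of those that fell in CHLA-90 alone (14 of 157), 5.17% of those that rose in both (3 of 58) and 13% of those called in neither line alone (3 of 23). The E2F letters TTTGGCGC were found in 0.877% of all these genes and in 0.66% of those that fell in SK-N-BE(2) alone (2 of 303), 1.88% of those that rose there alone (4 of 213), 1.27% of those that fell in CHLA-90 alone (2 of 157) and 2.86% of those that fell in SK-N-BE(2) and rose in CHLA-90 (1 of 35), with no match in the other shapes. Letters of the E-box and of the CRE can overlap in a promoter. Shares were described without a test, and no factor was measured on these promoters.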

How the data were processed

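Total RNA was hybridised to whole-transcript oligonucleotide arrays after biotin labelling with the GeneChip WT Terminal Labeling Hybridization Kit, per the labels' protocols. The values used were the authors' deposited log2 signals, 1 per probe and array; their software, normalization and genome build were not given in the sources used here. All 18 arrays entered 1 limma fit (version 3.58.1, R 4.3.3) of 6 group means with 12 residual degrees of freedom, no filter, and Benjamini-Hochberg adjustment over 21448 probes at 0.05. Of these, 17709 carried 1 gene symbol and 3739 none; a gene with several probes was read from the brightest. The fit was tested on simulated data. The number of arrays limits the precision. Errors after ± are standard errors. Genes were named as MAPK7, MYCN, the 6 widest interactions of each of 8 shapes and up to 4 called members of each described list; small RNA, open reading frame, LOC, LINC, FAM, KIAA and antisense names and RefSeq pseudogenes were passed over, and other genes are marked as named after their values were seen. Members and lists were chosen with earlier results of these data known. The E-box, CRE and E2F letters were planned; the CArG box (2 C, 6 A or T, 2 G) and the ATF4 element were added after seeing the data. Same-numbered shNSC and shERK5-4 arrays of a line deviated together weakly or not at all. The main fit used no block, and whether same-numbered arrays were paired is not known.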

Additional observations from a re-analysis of the deposited data

Results flagged for a closer look

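The shERK5-4 response differed between SK-N-BE(2) and CHLA-90 by the test of the interaction itself for 1550 probes, and for 115 genes named above. Each value in brackets is the interaction on the log2 scale, positive where the signal rose more or fell less in CHLA-90, from the limma fit with Benjamini-Hochberg adjustment. Genes that fell in SK-N-BE(2) and were not called in CHLA-90 were CRABP2 (3.50), EGR1 (3.27), LUM (3.26), MSN (2.83), HGF (2.76), MALL (2.65), MEF2A (0.98), CHAF1B (1.12), E2F7 (1.0), HSD17B7 (2.10), PDK1 (1.77), MCM4 (0.94), JUN (1.93), IER2 (1.42). Further genes of this shape were SNAP25 (1.29), COL6A3 (1.14), CDK2 (1.0), NOP16 (1.87), RRP9 (0.86), PTPRC (1.51). Those that rose in SK-N-BE(2) and were not called in CHLA-90 were SLITRK6 (-3.76), PREX1 (-3.55), ABCA12 (-3.32), TYRP1 (-2.89), MATN2 (-2.84), L1CAM (-2.78), PHGDH (-1.19), SLC2A3 (-2.06), BNIP3L (-0.97), SPARC (-1.0). In CHLA-90, with no call in SK-N-BE(2), falls were seen for DLX5 (-4.20), CADPS (-3.01), ITGA11 (-2.81), MT1F (-2.75), ITGA8 (-2.73), DCX (-2.63), MVK (-1.05), ASNS (-1.08), SLC6A2 (-2.06), DDC (-1.67), TFAP2B (-1.56), RBFOX1 (-1.28), BGN (-2.52), FBN1 (-1.80). Further genes of this shape were ACTA2 (-2.28), PDGFRA (-1.27), DUSP10 (-1.41), SLC18A1 (-1.57), PHOX2A (-1.72), GATA3 (-0.95), SLC18A2 (-1.17), FN1 (-1.21), EPAS1 (-1.24), TAGLN (-1.25), ENG (-2.13). Rises of that kind were seen for EPB41L4A (2.58), BHLHE40 (2.57), CELF2 (2.26), MATCAP2 (1.93), AHR (1.86), GCA (1.86), PFKFB3 (0.85). A rise in SK-N-BE(2) and a fall in CHLA-90 was seen for GFRA2 (-4.75), ADCYAP1R1 (-3.90), SNAI1 (-3.71), IGFBP5 (-3.70), FNDC5 (-3.52), YPEL3 (-3.41), VLDLR (-2.42), CHAC1 (-2.10), VEGFA (-1.66), NGFR (-1.32). The opposite was seen for SYT9 (3.71), IER3 (3.64), SEMA3A (3.56), LONRF2 (3.33), CREB5 (3.16), IL13RA2 (2.64), SPRED2 (1.29), MGA (1.38). Unequal rises in both lines were seen for DYRK1B (-2.45), ZNF467 (-2.37), CXXC4 (-1.82), HR (-1.78), PTBP2 (-1.77), MAP1A (-1.71), ELAVL3 (1.16), STMN4 (1.03). Unequal falls in both lines were seen for B4GALT6 (4.20), DBH (-4.20), TMT1A (-3.34), GREM1 (3.29), GPR50 (-3.29), PRR16 (-2.92), KLF6 (1.32), E2F8 (1.05), RFC3 (1.02), TMEM97 (1.32), CYP51A1 (1.18), DUSP6 (1.87), DCN (-1.08), CHAF1A (0.92). Further genes of this shape were CDC6 (1.03), CDC45 (0.89), SQLE (1.15), HMGCS1 (0.90), SPRY4 (1.03), ETV1 (0.79), HAND1 (-2.14), CHGA (-1.47), SYT1 (-0.92), THBS1 (-1.24), ENO1 (0.76), CDK6 (1.63), CCNE2 (1.61). For the other hairpin, shERK5-5, the response of MYCN also differed between the lines, with an interaction of 1.77.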

How the results depend on the processing

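At an adjusted p of 0.01 the interaction called 756 probes by limma, 366 above 0 and 390 below; 599 changed in 1 line, 42 in opposite directions and 100 in the same direction, and the hairpin difference between lines called 1407. With array weights 2000 probes were called, 1068 above 0 and 932 below, and 441 probes changed in the same direction. The cause was not tested for the array weights; the stricter threshold calls fewer probes by construction. Leaving out each array in turn gave 1094 to 1563 called probes, 841 to 1138 changed in 1 line, 64 to 105 in opposite directions, 169 to 291 in the same direction and 2122 to 3103 for the hairpin difference. The replicate numbers gave correlations of -0.06 to 0.18 between same-numbered arrays of a line, so they share only a number, and a fit with the replicate block called 1664 probes, 1482 of them in the same direction as without it. The MYCN interaction, not called in any alternative, was -0.13 after quantile normalization over all arrays (adjusted p = 0.851 by limma), where it had been 0.14; the cause was not tested. That of MAPK7 stayed between -0.48 and -0.17 and uncalled. Of the 115 named called genes 87 kept the call in all 23 alternatives run on genes and 28 lost it in at least 1, and none reversed. For lists with at most 3 calls in a direction, leaving out 1 array moved that count by up to 3. When the array of each line least like its own group was left out, both together, an alternative chosen after seeing the data, 582 probes were called above 0 and 597 below. Single-line calls, dim probes and the unknown upstream normalization limit what the shapes can show, since a probe not called in a line may still have changed there, and 0.932% of the dimmest 25% of probes were called.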

Other observations

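Counts in the other gene lists stand beside 7.23% of all probes called, 3.89% above 0 and 3.33% below. G2/M and mitosis genes, which separate the chromosomes, fell in both lines for many members (21 of 36 in SK-N-BE(2) and 14 in CHLA-90), while 2 interactions were called, both above 0, with a median of 0.11. Oxidative phosphorylation genes (20 measured, median 0.005) and cytosolic ribosomal proteins (12 measured, median -0.07) had none called by limma, and 1 each at an unadjusted p under 0.05, with no other tool run. Mesenchymal identity genes, the counterpart of the adrenergic ones, had 2 called above 0 and 1 below among 22, with a median of 0.04, beside the adrenergic median of -0.94. Interferon-stimulated and RNA-sensing genes, which can respond to double-stranded RNA, had 0 called above 0 and 2 below among 24 (median 0.10; 2 and 2 at an unadjusted p under 0.05, by limma), with 5 members higher in SK-N-BE(2) and 6 in CHLA-90. Small RNA processing genes had 1 called above 0 among 14 (median -0.08).

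The remaining lists were called at counts between 1 and 3. Chaperones of the endoplasmic reticulum had 2 above 0 and 1 below among 19, p53 targets 2 and 1 among 18, YAP and TEAD targets 1 and 1 among 17, and lysosome and autophagy genes 1 and 2 among 26. As a share of members these were 15.8%, 16.7%, 11.8% and 11.5%, and 5.56% in the G2/M list. Apoptosis regulators had 0 above 0 and 1 below among 20 (2 and 3 at an unadjusted p under 0.05, by limma), and NF-kB targets and cytokines 0 and 2 among 20 (1 and 3).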
